A study of Mus musculus with 3 samples.

Results

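The genes described here are the 5 NF-kB subunit genes Nfkb1, Nfkb2, Rela, Relb and Rel and 5 genes of the IkB family, the cytoplasmic inhibitors Nfkbia, Nfkbib and Nfkbie and the nuclear members Nfkbiz and Bcl3. They were chosen by name from a fixed list, with earlier results of these data known, and all 10 of them were found among 55536 gene entries. Polyadenylated RNA was sequenced from mouse macrophages grown from bone marrow, a standard culture of primary macrophages, of strain C57BL/6J. All cells were stimulated at 100 ng/mL for 480 minutes, with the agent given as lipid A in the sample descriptions and as lipoprotein A in the treatment fields. The series held 1 group of 3 biological replicates, here replicates 1, 2 and 3, from separate biosamples under the same donor label, with age and sex given as not collected. No unstimulated cells were among the samples, so every value is a level after stimulation and no change from rest can be given. A p-value here measures only the spread between these 3 libraries.

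NF-kB proteins bind DNA as pairs built from the 5 subunits. Rela, Relb and Rel encode subunits with a transcription activation domain, whereas Nfkb1 and Nfkb2 encode the precursors p105 and p100, whose N-terminal parts become the subunits p50 and p52 and whose C-terminal ankyrin repeats hold other subunits back, as IkB proteins do. In macrophages, Toll-like receptors activate the IKK kinases, which mark the cytoplasmic IkB proteins for ubiquitination and breakdown, and the freed dimers enter the nucleus. Several of the genes are themselves NF-kB targets, and newly made IkB alpha, the product of Nfkbia, takes dimers out of the nucleus again. RNA levels say nothing of how much protein was present or where it was.

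Levels are deposited TPM values, transcript abundances that are scaled for transcript length and to the same library total and so can be compared between genes. Totals were 26589042, 34344922 and 48356527 expected counts on genes in replicates 1, 2 and 3, and a member had 1912 to 23619 counts in a library, so that counting error alone was at most 2.29% of a member's count. A gene counted as detected at 1 TPM or more in 3 of 3 libraries, which 10 of 10 members and 48.5% of 20476 genes with any count did. The macrophage label was checked on marker genes: 8 of 8 macrophage markers were detected, from Lyz2 at 12916 ± 2539 TPM (SD, n = 3) to Itgam at 76.55, 60.7 and 58.0 TPM. None of 4 B cell, 3 T cell, 2 NK cell and 3 fibroblast markers was detected, with summed levels of at most 1.64 TPM per list in a library. Their highest means were 0.85 TPM for Cd79b, 0.18 TPM for Cd3e, 0.03 TPM for Ncr1 and 0.39 TPM for Col3a1, and their lowest were 0.05 TPM for Cd79a, 0 TPM for Cd3d and Cd3g, 0.013 TPM for Klrb1c and 0.023 TPM for Pdgfra. Neutrophil markers summed to 22.9, 420.1 and 21.4 TPM in replicates 1, 2 and 3, with 2 of 6 detected, from S100a9 at 14.8, 236.7 and 12.4 TPM to Ly6g at 0, 0.55 and 0 TPM, so replicate 2 stood apart on this list.

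The gene with the most RNA was Nfkbia and the one with the least was Rel, and all 10 genes were above 15 TPM in every library. The places of Nfkbia, Nfkb2, Nfkb1 and Nfkbib, the first 4 by mean TPM, and of Rel, the last, were the same in 3 of 3 libraries, 5 members in all. The other 5 members changed places between libraries. Neighbours in the order of mean TPM were called apart when their log2 ratio had the same sign in 3 of 3 libraries and its mean was above 2 SD, because a sign-flip permutation over 3 libraries cannot give a two-sided p below 0.25. By that rule 4 of 9 neighbouring pairs were apart: Nfkbia was above Nfkb2 (2.01-fold), Nfkb2 above Nfkb1 (1.80-fold), Nfkbib above Nfkbie (1.48-fold) and Rela above Rel (2.63-fold). Nfkb1 and Nfkbib (1.19-fold, log2 0.26 ± 0.17) were not apart, nor were any neighbours in the run from Nfkbie through Nfkbiz, Bcl3 and Relb to Rela. In these bulk samples, fewer cells of a type and less RNA per cell cannot be told apart.

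**Figure D1:**
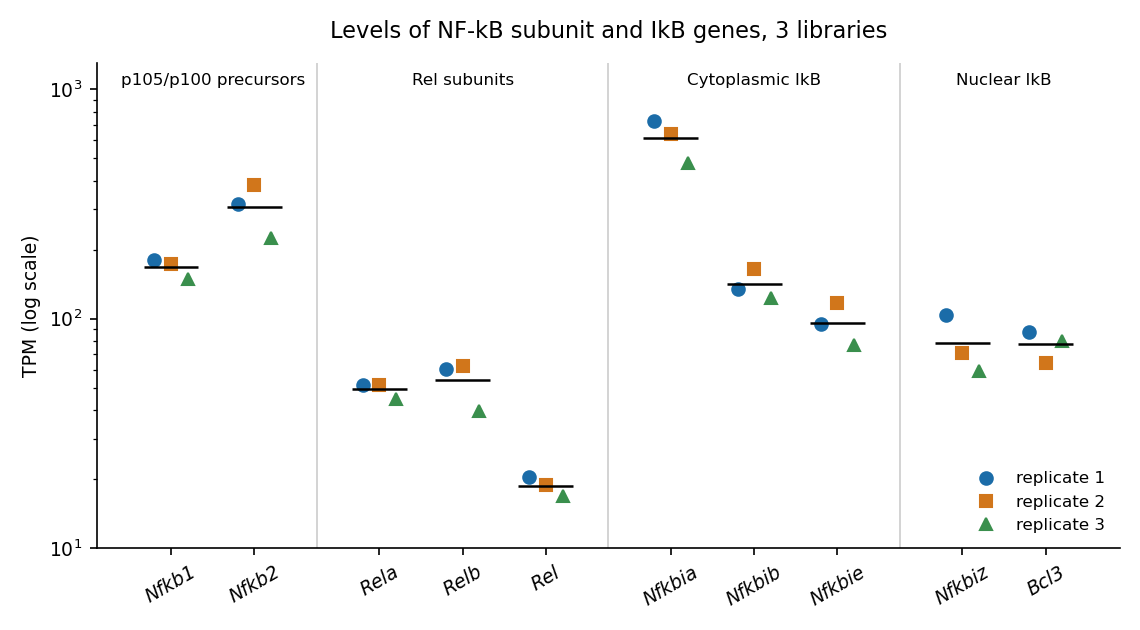
TPM of the 10 genes on a log axis, grouped by role, with 1 point per library (circle, replicate 1; square, replicate 2; triangle, replicate 3) and a bar at the mean. Nfkbia averages 615 TPM and Rel 18.7 TPM, and the triangles of replicate 3 are the lowest points for every gene but Bcl3.

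The precursor genes held most of the subunit RNA. Nfkb1 and Nfkb2 together made up 79.0%, 80.7% and 78.7% of the TPM summed over the 5 subunit genes, and the subunit genes with an activation domain shared the rest. Nfkb2 (chromosome 19, 46304320 to 46312385, plus strand, mm10) was at 317, 382 and 224 TPM, a mean of 308 ± 79 TPM (SD, n = 3). Nfkb1 (chromosome 3, 135584655 to 135691547, minus strand) was at 181, 174 and 149 TPM, a mean of 168 ± 17 TPM. Nfkb2 was above Nfkb1 in each library, by 1.76-fold, 2.20-fold and 1.502-fold (log2 0.84 ± 0.28). Nfkb2, the precursor gene of the noncanonical arm, was thus high in replicates 1 and 2 and low in replicate 3, and its range did not overlap that of Nfkb1.

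Of the subunits with an activation domain, Relb and Rela were not apart and Rel was below both. Relb (chromosome 7, 19606217 to 19629438, minus strand), the partner of p52 in the noncanonical arm, had 60.2, 62.5 and 39.6 TPM, a mean of 54.1 ± 12.6 TPM. Rela (chromosome 19, 5637483 to 5648130, plus strand), the p65 subunit of the most common dimer, had 51.4, 51.5 and 44.7 TPM, a mean of 49.2 ± 3.9 TPM. Relb was above Rela in replicates 1 and 2 and below it in replicate 3, so the pair was not apart (log2 0.11 ± 0.25). Without replicate 3 the ratio would be called apart, at log2 0.25. That replicate alone had the other sign and the rule is easier to meet with fewer libraries, so this decides nothing. Rel (chromosome 11, 23736847 to 23770970, minus strand), which encodes c-Rel and is best known from lymphocytes, had 20.5, 18.9 and 16.8 TPM, or 18.7 ± 1.8 TPM. Its ratio to Rela was 0.398, 0.366 and 0.377, the pair with the second smallest spread of the 10 tested (log2 -1.40 ± 0.06). Of all detected genes, 57.2% had a lower mean TPM than Rel.

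The genes of known dimer partners were also compared within each library. Nfkb1 over Rela, the partners of the p50 and p65 dimer, was 3.52, 3.37 and 3.34 (log2 1.77 ± 0.04), the smallest spread of the 10 pairs. Nfkb2 over Relb was 5.27, 6.11 and 5.66 (log2 2.50 ± 0.11), although Nfkb2 alone ranged 1.70-fold and Relb alone 1.58-fold between libraries. Small spreads were not limited to these partners. Nfkbie over Nfkbib, both inhibitor genes, had an SD of 0.10, and Rel over Rela 0.06. The remaining pairs had SDs from 0.21 to 0.36. Whether partner genes keep steadier ratios than other genes was not tested. In all, 8 of the 10 pairs were apart, and those not apart were Relb over Rela and Nfkbiz over Bcl3.

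**Figure D2:**
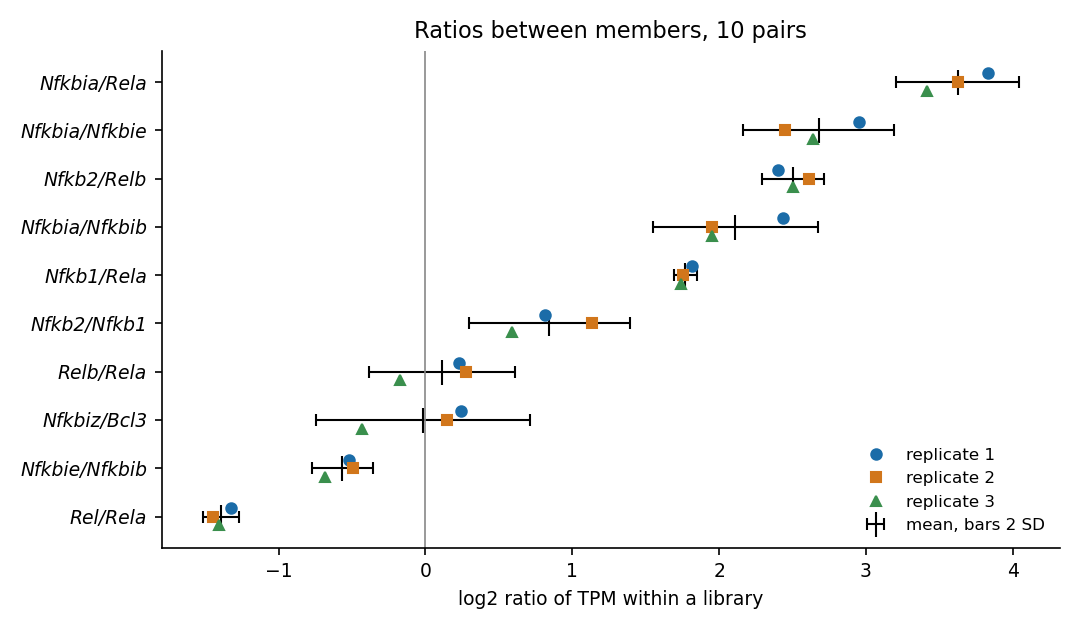
log2 ratio of TPM within a library for 10 pairs of genes, with 1 point per library (circle, replicate 1; square, replicate 2; triangle, replicate 3), the mean as a tick and bars of 2 SD. Nfkb1/Rela and Rel/Rela have the narrowest bars, and the bars of Relb/Rela and Nfkbiz/Bcl3 cross 0.

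The cytoplasmic inhibitors were led by Nfkbia. Nfkbia (chromosome 12, 55489410 to 55492647, minus strand), the fast inhibitor of the feedback loop, had 732, 637 and 476 TPM, a mean of 615 ± 129 TPM, which ranked 250 among all gene entries by mean TPM. It was highest in replicate 1 and lowest in replicate 3, yet its lowest library was above the highest library of every other member. Nfkbib (chromosome 7, 28758251 to 28767512, minus strand), which encodes IkB beta, had 135, 165 and 123 TPM, a mean of 141 ± 21 TPM. Nfkbie (chromosome 17, 45555703 to 45563169, plus strand), which encodes IkB epsilon, had 94.4, 116.9 and 76.6 TPM, a mean of 96.0 ± 20.2 TPM. Both were highest in replicate 2 and lowest in replicate 3. Nfkbia made up 76.1%, 69.3% and 70.4% of the TPM of the 3 cytoplasmic inhibitors, and was 4.32-fold above Nfkbib and 6.40-fold above Nfkbie by mean log2 ratio. Nfkbie was below Nfkbib in each library, at 0.70, 0.71 and 0.62 of its TPM (log2 -0.57 ± 0.10).

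Set against the subunits they hold, the 3 cytoplasmic inhibitor genes summed to 961, 919 and 676 TPM, against 630.2, 688 and 474 TPM for the 5 subunit genes. The ratio was 1.53, 1.33 and 1.42, a mean of 1.43 ± 0.10. Over Rela, Rel and Relb alone it was 7.28, 6.91 and 6.69. Nfkbia itself was 14.2, 12.4 and 10.7 times Rela (log2 3.62 ± 0.21). The inhibitor RNA was above the subunit RNA in 3 of 3 libraries in these sums.

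The 250 bases before the RefSeq start of Nfkbia are shown because this gene had the most RNA of the 10 and its promoter is a textbook site of NF-kB binding. Capitals mark the match to the kappaB consensus, the 10-base site bound by NF-kB dimers, whose first base on the gene's strand is at -29 from the start. The sequence is the gene's strand of GRCm38.p6, chr12:55492648-55492897, and lies in no annotated exon of Nfkbia.
Nfkbia: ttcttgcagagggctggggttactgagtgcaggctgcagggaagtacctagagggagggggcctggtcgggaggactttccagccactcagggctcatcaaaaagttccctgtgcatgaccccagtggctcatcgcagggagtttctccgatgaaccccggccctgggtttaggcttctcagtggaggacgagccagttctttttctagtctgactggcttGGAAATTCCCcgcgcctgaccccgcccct

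Both nuclear IkB genes were near 78 TPM. Nfkbiz (chromosome 16, 55811375 to 55838899, minus strand), whose product acts in the nucleus with p50 at a second wave of genes such as Il6, had 104, 71.0 and 59.1 TPM, a mean of 78.0 ± 23.3 TPM. Bcl3 (chromosome 7, 19808462 to 19822770, minus strand), which binds p50 and p52 dimers on DNA, had 87.8, 64.3 and 79.7 TPM, a mean of 77.3 ± 11.97 TPM. Nfkbiz was above Bcl3 in replicates 1 and 2 and below it in replicate 3, so the pair was not apart (log2 -0.01 ± 0.36). Without replicate 3 the sign turned and the pair would be called apart, at log2 0.19. Leaving out the only library of the other sign makes the signs alike, so this decides nothing. Nfkbiz had the widest range of the 10, 1.76-fold between replicates 1 and 3, and Bcl3 was the one member whose lowest library was replicate 2.

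The libraries differed on these genes mainly through replicate 3. There 9 of 10 members had their lowest TPM, beside 26.8% of 9930 detected genes, and none had its highest, beside 23.2%. Bcl3 alone was lowest in replicate 2, beside 31.4% of detected genes, and no member was lowest in replicate 1, beside 41.8%. On log2 TPM the median member deviated from its own mean by 0.12, 0.07 and -0.24 in replicates 1, 2 and 3, and the median detected gene by -0.04, 0.05 and -0.02. Highest in replicate 1 were 5 members (Nfkb1, Rel, Nfkbia, Nfkbiz and Bcl3), beside 30.6% of detected genes. The other 5 were highest in replicate 2 (Nfkb2, Rela, Relb, Nfkbib and Nfkbie), beside 46.3%, and that is the library with the neutrophil marker RNA, whose part in these values was not tested. With counts scaled by TMM, a scaling factor per library from the bulk of its genes, 9 members were again lowest in replicate 3, beside 23.0% of detected genes. By the same scaling 7 members were highest in replicate 1, beside 34.7%, and 3 in replicate 2, beside 38.3%, because Rela and Relb changed sides. The second deposited quantification was, judging from its columns, made without alignment. There 2 members were highest in replicate 1, beside 14.5% of 9520 genes, and 8 in replicate 2, beside 65.6%, so these counts are near the background. In the same quantification 8 members were lowest in replicate 3, beside 21.4%. Its values for the median gene were shifted against the first by log2 -0.38, -0.08 and -0.23 in replicates 1, 2 and 3.

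**Figure D3:**
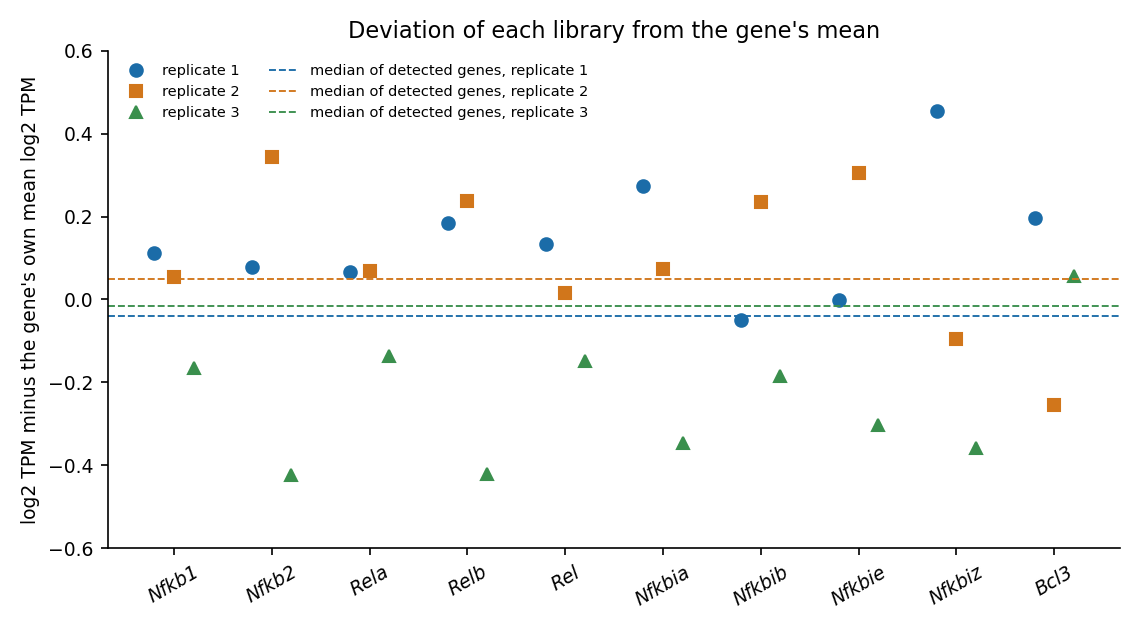
log2 TPM of each library minus the gene's own mean log2 TPM, for the 10 genes, with circle, square and triangle for replicates 1, 2 and 3 and dashed lines at the median of detected genes in each library. Triangles are the lowest symbols for every gene but Bcl3 and reach -0.42 for Nfkb2 and Relb, whereas the dashed lines lie between -0.04 and 0.05.

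The spread between libraries was larger than counting error for 10 of 10 members (chi-square test on 2 degrees of freedom, Benjamini-Hochberg adjusted at 0.05 over the 12414 genes averaging 10 or more counts). By the same test 70.9% of these genes were called, and 80.8% of those that averaged 100 counts or more, as all members did, so the members' count is not far from the background. Leaving out replicate 3 left 8 of 10 members called, beside 61.1% of genes, and leaving out replicate 2 left 10 of 10, beside 42.7%. These shares again cover all genes averaging 10 or more counts. The test calls more genes at high counts, so they are too low a background for the members. By size, Rela, Rel and Nfkb1 varied least, with coefficients of variation of 7.95%, 9.74% and 9.86% of TPM. Nfkbiz, Nfkb2 and Relb varied most, at 29.8%, 25.7% and 23.3%. The median detected gene had 15.5%, and 5 of the 10 members were above it. By edgeR's biological coefficient of variation, which borrows information across genes, 2 of the 10 members were above the median of tested genes, and the median was 18.2% for members and 20.5% for tested genes. The tested genes reach down to an average of 10 counts, whereas no member had fewer than 1912. No comparison with genes of like counts was made.

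Transcript tables split each gene's TPM among its annotated transcripts, and the same libraries were quantified by 2 methods. Judging from their columns, one was on aligned reads and the second without alignment. The transcript with the largest share was the same in 3 of 3 libraries and in both quantifications for 7 of the 9 members that have more than 1 annotated transcript, beside 76.7% of 8643 genes. Within the aligned table alone it was the same in 3 of 3 libraries for 9 of 9, beside 86.2%, and within the second for 7 of 9, beside 85.2%. Nfkb2 and Relb were the exceptions, and Rel has a single transcript. Nfkbia-201 held 98.3 ± 0.2% of the TPM of Nfkbia in the aligned table, Nfkbib-202 98.8 ± 0.1% of Nfkbib, Nfkbie-201 93.7 ± 1.7% of Nfkbie and Bcl3-201 88.8 ± 1.8% of Bcl3. Their shares in the second quantification were 96.1 ± 0.7%, 98.5 ± 0.1%, 93.8 ± 2.3% and 87.0 ± 4.0% in the same order. The second transcripts of these genes were Nfkbia-202 at 1.72 ± 0.21%, Nfkbib-201 at 1.17 ± 0.09%, Nfkbie-203 at 3.42 ± 0.67% and Bcl3-203 at 8.42 ± 2.21%. In the second quantification Bcl3-204 came second instead, at 4.596 ± 1.91%, and for Nfkbie it was the retained-intron transcript Nfkbie-202, at 3.70 ± 1.66%.

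**Figure D4:**
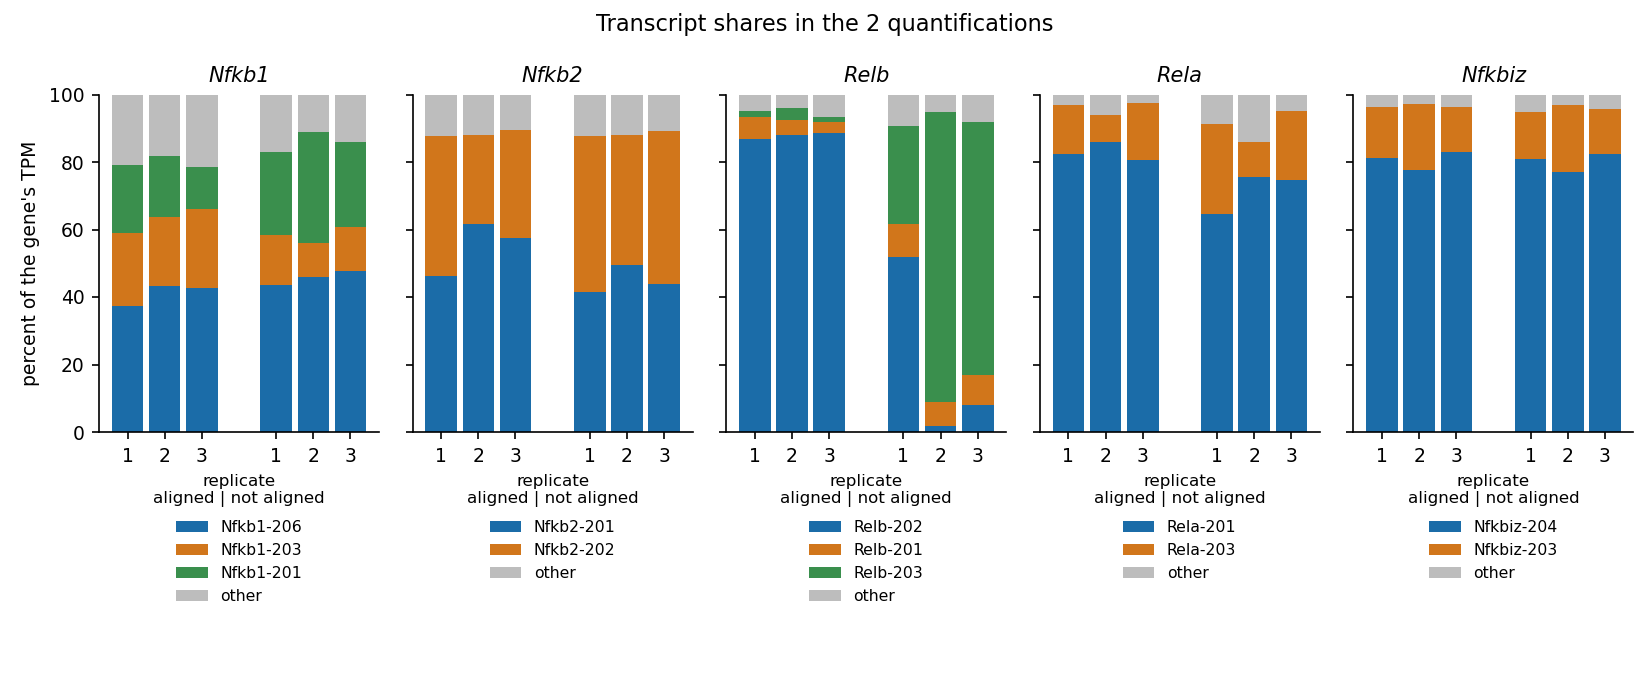
Share of each gene's TPM on its leading transcripts, in percent, for replicates 1 to 3 in the table from aligned reads (left 3 bars) and in the quantification without alignment (right 3 bars). Nfkbiz shares hardly differ between the methods, whereas Relb-202 holds 86.9 to 88.5% on the left and Relb-203 28.9 to 85.9% on the right.

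The leading Nfkb2 transcripts, Nfkb2-201 and Nfkb2-202, have different starts and an identical coding sequence of 2697 bases. The first starts at position 46304744 and Nfkb2-202 at 46305696, which is 952 bases downstream. In the aligned table Nfkb2-201 held 46.3%, 61.5% and 57.5% and Nfkb2-202 41.4%, 26.6% and 32.1% in replicates 1, 2 and 3, so the upstream form led in each library. In the second quantification Nfkb2-201 held 41.6%, 49.4% and 43.8% and Nfkb2-202 46.1%, 38.7% and 45.5%, so the downstream form led in replicates 1 and 3. The log2 ratio of Nfkb2-201 to Nfkb2-202 was 0.74 ± 0.53 by the first method and 0.05 ± 0.27 by the second, and the forms were apart by neither. The deposited model SD of the counts of these forms was 1.31 to 2.93%, smaller than the difference between the methods.

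Both starts of Nfkb2 have kappaB matches near them. The short runs below show these matches because both quantifications assign RNA to transcripts annotated from each start. Start sites themselves were not measured. Each run is 30 bases of the plus strand of GRCm38.p6 chromosome 19 with the match in capitals. The first pair begins at -39 and -11 from the RefSeq start at 46304737, and the last pair begins at -236 and 11 from the RefSeq start at 46305695.
Nfkb2 upstream start, match at -39: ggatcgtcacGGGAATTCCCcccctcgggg
Nfkb2 upstream start, match at -11: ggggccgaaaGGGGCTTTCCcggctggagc
Nfkb2 downstream start, match at -236: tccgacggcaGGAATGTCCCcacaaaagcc
Nfkb2 downstream start, match at 11: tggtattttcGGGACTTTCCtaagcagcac

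RefSeq promoter windows, 250 bases before to 50 after a start in GRCm38.p6, were found for 7 of the 10 members (9 windows, of which 3 belong to Nfkb2), and not for Nfkb1, Relb and Nfkbiz. The kappaB consensus was searched on both strands, and 7 of the 9 windows, those of 5 genes, held a match, beside 4.51% of 32851 windows in the table. The last window of Nfkb2 overlaps the one before it, and both hold the match at 46305705. Matches of the other genes are shown in the same way, on the strand of each gene, because these members stand at very different RNA levels. Rel, the lowest of the 10 by RNA, had a match as did Nfkbia, the highest, and no match was in the windows of Rela and Nfkbib. A match is a run of letters, and binding was not measured.
Rel, match at -92: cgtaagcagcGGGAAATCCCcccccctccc
Nfkbie, match at -106: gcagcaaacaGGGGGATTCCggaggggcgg
Bcl3, match at 3: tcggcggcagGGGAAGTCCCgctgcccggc

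**Figure D5:**
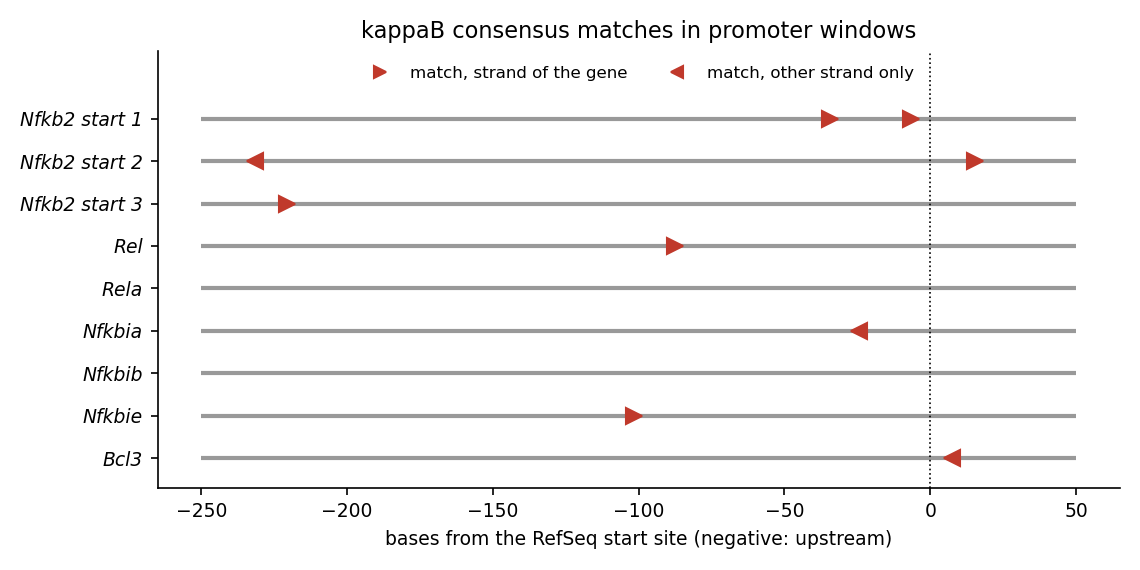
Positions of kappaB consensus matches (triangles, pointing right when on the strand of the gene and left when only on the other strand) in the 9 RefSeq windows of 7 genes, in bases from the start site. Nfkb2 start 1 has 2 matches within 39 bases of the start, and the windows of Rela and Nfkbib have none.

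Relb was split between near-identical transcripts in a way that depended on the method. Relb-202 held 86.9%, 88.1% and 88.5% in the aligned table, but 51.7%, 1.88% and 8.12% in the second quantification, where Relb-203 held 28.9%, 85.9% and 75.0%. The 2203 bases of Relb-203 are the same as the first 2203 of the 2209 bases of Relb-202, so in sequence only the last 6 bases tell them apart. Their annotated exon limits also differ, since the 9-base exon described below is annotated with 11 bases in Relb-203. Whether this affects the split was not tested. Added up, they held 89.9 ± 1.5% in the aligned table and 83.8 ± 3.6% in the second. Relb-201 differs from Relb-202 by lacking a coding exon of 9 bases (chr7:19622926-19622934, minus strand, as annotated for Relb-202), and held 4.79 ± 1.63% in the aligned table and 8.54 ± 1.51% in the second. Of the TPM on these 3 transcripts, the forms with the exon thus had 93.1%, 95.4% and 96.4% in the aligned table and 89.0%, 92.7% and 90.5% in the second. The sequences around it are given as transcribed, with the exon in capitals and 30 bases on each side, since this exon is what divides the Relb RNA by coding sequence (1674 bases with it and 1665 without).
Relb-202: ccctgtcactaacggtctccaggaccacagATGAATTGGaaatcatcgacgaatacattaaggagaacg
Relb-201: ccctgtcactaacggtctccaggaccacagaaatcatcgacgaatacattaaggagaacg

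Nfkbiz RNA was mostly of the form with the longer coding sequence, and both methods gave the same split. Nfkbiz-204, with 2184 coding bases, held 81.3%, 77.6% and 83.0% in the aligned table and 80.9%, 77.0% and 82.4% in the second. Nfkbiz-203 starts 16761 bases upstream, has 1887 coding bases, and held 14.9%, 19.5% and 13.4% in the aligned table and 14.1%, 19.9% and 13.4% in the second. The log2 ratio of Nfkbiz-204 to Nfkbiz-203 was 2.36 ± 0.33, a 5.12-fold difference that was apart, and it was 2.36 ± 0.36 in the second quantification. Replicate 2 had the smallest share of the longer form by both. The coding sequence of Nfkbiz-204 ends with the whole of that of Nfkbiz-203, so it adds 297 bases, or 99 codons, at the start. The first 60 coding bases of each show the different starts, with the first codon in capitals.
Nfkbiz-204: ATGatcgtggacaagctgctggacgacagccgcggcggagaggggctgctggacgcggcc
Nfkbiz-203: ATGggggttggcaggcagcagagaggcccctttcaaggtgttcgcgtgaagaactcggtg

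Nfkb1 was led by Nfkb1-206, with 37.5%, 43.4% and 42.5% in the aligned table and 43.4%, 46.0% and 47.7% in the second. Nfkb1-201, which has the same 2913 coding bases but starts 23747 bases upstream, held 16.8 ± 4.0% in the aligned table and 27.6 ± 4.8% in the second, where it came second. Nfkb1-206 was apart from Nfkb1-201 by both methods, at 2.49-fold and 1.67-fold. These forms also differ at the 3' end, at 135585278 for Nfkb1-206 and 135584655 for Nfkb1-201. Their ratio is therefore not a measure of start use alone. In the aligned table second place fell to Nfkb1-203, at 21.8 ± 1.6%, whose annotated coding start is incomplete. For Rela, the coding transcript Rela-201 held 83.0 ± 2.8% in the aligned table and 71.6 ± 6.1% in the second. Rela-203, a retained-intron transcript of 786 bases, held 14.6%, 7.89% and 17.0% in the aligned table and 26.5%, 10.43% and 20.4% in the second, lowest in replicate 2 by both.

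On whole genes the second quantification gave lower values for 10 of 10 members, beside 88.0% of 9520 genes detected by both methods. Second over first, the median gene had a ratio of 0.853 and members ranged from 0.739 for Nfkb1 to 0.877 for Rela. None of the 10 members, beside 3.74% of genes, was apart by over 1.5-fold. Nfkbia was at 525 ± 106 TPM in the second quantification, against 615 ± 129 TPM in the first. Other annotated genes overlap 4 of the members, and the sources used here do not say whether counting used strand. Sirt2, at 127 ± 3 TPM, overlaps the annotated span of Nfkbib by 778 bases, and Psd, at 20.5 ± 4.7 TPM, and AC114539.1, at 9.28 ± 2.89 TPM, overlap Nfkb2, all on the opposite strand. The span of Sirt2 begins at 28766735, beyond those of Nfkbib-202 (to 28766514) and Nfkbib-201 (to 28766640). It reaches only Nfkbib-203, which had 0 TPM in each library. That of Psd begins at 46312087, beyond those of Nfkb2-201 (to 46312022) and Nfkb2-202 (to 46312027), but it reaches Nfkb2 transcripts of smaller shares. The span of AC114539.1 runs to 46305611. It covers the start of Nfkb2-201 at 46304744 and not that of Nfkb2-202 at 46305696. Its part in the shares of these forms was not tested. Genes that overlap Nfkb1 and Bcl3 averaged at most 0.59 TPM. Reads in these overlaps cannot be assigned with certainty.

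Of the 42 genes in 5 pathway lists, 40 were detected at 1 TPM in 3 of 3 libraries, beside 48.5% of genes with any count, and 29 reached 10 TPM. The lists were chosen with earlier results of these data known, so the contrast with the background tests nothing. Of the list for IKK and upstream kinases, which also holds Map3k8 and binding partners of the kinase TAK1, 8 of 8 were detected, with a list median of 18.3 TPM. The highest were Tab2, an adaptor of the kinase TAK1, at 72.8 ± 1.2 TPM and Map3k8, the kinase Tpl2 that p105 holds inactive, at 56.3 ± 5.3 TPM. The lowest were Tab1 at 5.07 ± 0.29 TPM and Tab3 at 2.49 ± 0.49 TPM. The noncanonical arm had 5 of 5 genes detected and a list median of 22.0 TPM. Birc3, a ubiquitin ligase, was at 152 ± 13 TPM and Traf2, its adaptor, at 47.5 ± 2.3 TPM, whereas Traf3, which holds NIK levels down, was at 5.46 ± 0.18 TPM and Map3k14, the NIK gene, at 5.30 ± 0.58 TPM. The list for the ubiquitin ligase of phosphorylated IkB had 5 of 5 genes detected (list median 34.8 TPM), from Fbxw11, a substrate receptor for IkB, at 88.9 ± 5.7 TPM and the RING subunit gene Rbx1 at 72.2 ± 4.6 TPM to Btrc, the sister gene of Fbxw11, at 12.8 ± 0.9 TPM and Fbxw7, an F-box receptor of another ligase, at 7.41 ± 1.94 TPM.

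Other binders of NF-kB or IkB were lower, with 7 of 8 detected and a median of 9.60 TPM. Nkiras2, whose product binds IkB beta, was at 59.7 ± 19.2 TPM and Commd1, which acts in the turnover of p65, at 37.9 ± 4.0 TPM, and at the low end were Nfkbid, a further nuclear IkB gene, at 5.19 ± 0.55 TPM and the repressor gene Nkrf at 0.41 ± 0.11 TPM. Textbook NF-kB target genes, a list also chosen with earlier results known, had 15 of 16 detected. Their median was 319 TPM, against 14.0 TPM for the median detected gene. Sod2, which encodes mitochondrial superoxide dismutase, was at 1364 ± 184 TPM and the chemokine gene Ccl2 at 1113 ± 132 TPM, whereas the chemokine gene Cxcl1 was at 1.98 ± 0.77 TPM and Csf2, the GM-CSF gene, at 0.11 ± 0.06 TPM. In replicate 3, 11 of the 15 detected targets had their lowest TPM, beside 26.8% of detected genes, as did 9 of 10 members. The other lists had 5 of 8 (IKK and upstream kinases), 3 of 5 (noncanonical arm), 2 of 5 (ligase) and 1 of 7 (other binders) detected genes lowest there, and 5 of the 7 other binders were lowest in replicate 1. Targets summed to 7235.5, 7507 and 5600.0 TPM in replicates 1, 2 and 3.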

How the data were processed

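The 3 libraries of polyadenylated RNA from 1 group were analysed. Per the readme deposited with each sample, assembly mm10 and GENCODE annotation M21 were used. Neither programs nor strand settings are given in these sources. Gene tables hold, per the file headers, expected counts and TPM, and matching transcript tables hold each transcript's percent of its gene's TPM and a model SD of its count. A second deposited set holds estimated counts and TPM per transcript, which were summed per gene. That the first set came from aligned reads and the second was made without alignment was inferred from their columns. Rows that name no gene, 0.0682 to 0.127% of counts, were left out of totals.

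The members and the gene lists were chosen with earlier results of these data known. Named are all 10 members, the 2 highest and 2 lowest genes of each pathway list, the highest and lowest of each marker list, and each member's 2 leading transcripts per quantification. Values are mean ± SD over 3 libraries (n = 3), with no pseudocount. Variation was tested by chi-square on rounded expected counts against TMM-scaled totals (edgeR 4.0.16). The test was checked on counts simulated with counting error alone, with a set change given to some genes. Such a check does not cover the further spread of these libraries. DESeq2 1.42.0 size factors were an alternative. Software was R 4.3.3 and Python 3.11.15 with scipy 1.17.1, pandas 2.3.3, numpy 2.4.6 and matplotlib 3.10.9. Gene positions came from GENCODE M21, and promoter sequences from RefSeq, build GRCm38.p6. Comparisons of protein sequence were not made. No control group was among the samples, so no test between groups was made.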

Additional observations from a re-analysis of the deposited data

How the results depend on the processing

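No paired analysis was possible because the series holds a single group. Alternatives were a second quantification, other scalings and filters, protein-coding transcripts only, and leaving out each replicate. Under the second quantification 2 members in place of 5 were highest in replicate 1 (14.5% of all genes), 8 were highest in replicate 2 (65.6%) and 8 were lowest in replicate 3 (21.4%). With counts scaled by TMM or by DESeq2 size factors 3 were highest in replicate 2. Without each replicate in turn, 5 to 6 neighbours in the order were apart in place of 4, and 8 to 10 pairs in place of 8. The rule is easier to meet with fewer libraries, so these rises do not show that any replicate mattered. Mean TPM was lower by more than 1 SD for Nfkb1, Rel, Rela and Nfkbib in the second quantification, and for Nfkb1 and Rela over protein-coding transcripts. Second over first, these 4 genes had ratios of 0.739, 0.835, 0.877 and 0.791, beside 0.853 for the median gene. Rel and Rela thus shifted about as much as the median gene and passed 1 SD because their SDs were small. Leaving out each replicate in turn, the log2 ratio of Nfkbiz to Bcl3 ran from -0.14 to 0.19, the highest without replicate 3, where the sign turned, and there Relb over Rela became apart (log2 0.25). The cause was not tested. In all, 8 of 10 pairs stayed apart by the second quantification, with a pseudocount of 1 TPM and over protein-coding transcripts. Taking Relb-202 and Relb-203 as 1 transcript, an alternative chosen after the data had been seen, gave 8 of 9 members with the same leading transcript, against 7 of 9. At 10 TPM in place of 1 TPM, 29 in place of 40 pathway genes were detected, with 5 in place of 8 for IKK and upstream kinases, 3 in place of 5 for the noncanonical arm and 3 in place of 7 for the other binders. Counting error was at most 2.29% of a member's count.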
